A study of Glycine max with 20 samples.

Results

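Seeds of the soybean near-isogenic line cgy-2-NIL were compared with seeds of its recurrent parent, the cultivar DongNong 47 (DN47), at 55 days after flowering (DAF), the latest of the 5 stages sequenced. All 4 libraries labelled 55 DAF were used, 2 of each line, out of 20 in the series, and every one of the 57274 genes listed in the tables was considered. cgy-2-NIL carries the cgy-2 allele, with which the α-subunit of β-conglycinin does not accumulate, on a donor segment of chromosome 20 brought into DN47 by repeated backcrossing. DN47 holds all storage protein subunits, and no treatment was given to either line. Seeds of 1 age were pooled and the cotyledon and seed coat were not separated, so fewer cells of a type and less RNA per cell cannot be told apart in any value given here. The methods describe the libraries of a line as biological replicates from separate samples, without saying whether these came from separate plants. More than 1 selected line bears the name cgy-2-NIL, and which of them gave the libraries is not stated, so p-values measure only the spread between these samples.

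Soybean seeds store most of their protein as 7S globulin (β-conglycinin, built of α, α′ and β subunits) and 11S globulin (glycinin, encoded by the Gy genes). Both belong to the cupin family, a fold shared by many seed allergens. Their transcripts accumulate in the cotyledon during seed filling and decline as the seed matures and dries, when much of the transcription programme of the developing seed is shut down. Gibberellin signalling, which is restrained by the DELLA proteins of the GRAS family, is among the pathways known for growth and for the passage from maturation to germination.

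The storage globulins that define cotyledon tissue were present in all 4 libraries. The summed RPKM (reads scaled to gene length and to the library total) of Gy1 to Gy5 was 4587 and 4118 in cgy-2-NIL and 40275 and 35705 in DN47, while the α′ and β genes together reached 1875 and 1233.7 in cgy-2-NIL and 6350 and 5651 in DN47. Markers of the seed coat and of green tissue could not be read, because the identifiers are not paired with gene names. The libraries held 23234960 and 24278577 counts in cgy-2-NIL and 19925743 and 21750078 counts in DN47. Replicates lay further apart in cgy-2-NIL, where 235 of 27403 genes with a mean of at least 20 counts differed by more than 4-fold between the replicates, against 37 in DN47.

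Of the 57274 genes, 40721 passed the filter on low counts and were tested with the quasi-likelihood test of edgeR. At an adjusted p under 0.05, 46.1% of the genes tested were called, 21.8% of them upregulated and 24.4% downregulated in cgy-2-NIL (shares of all genes tested). Past an absolute log2 fold change of 2, a change of more than 4-fold, 9.69% were called, with 2.79% upregulated and 6.89% downregulated. The 4 libraries split by line without overlap in 68% of the genes tested. Without a library scaling factor other than the total count, 6179 genes were called upregulated and 11402 downregulated, in place of 8867 and 9924. The median of all genes then shifted by -0.16 on the log2 scale. With the size factors of DESeq2 the order was reversed, at 9947 upregulated and 8994 downregulated. The DESeq2 Wald test gave 9577 and 8772, and a filter of at least 10 counts in each 55 DAF library gave 7946 and 7864. Which direction held more calls thus depended on the setting. Past 4-fold, more genes were downregulated in each of these settings. Counts of named genes below are to be read against these shares.

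**Figure D1:**
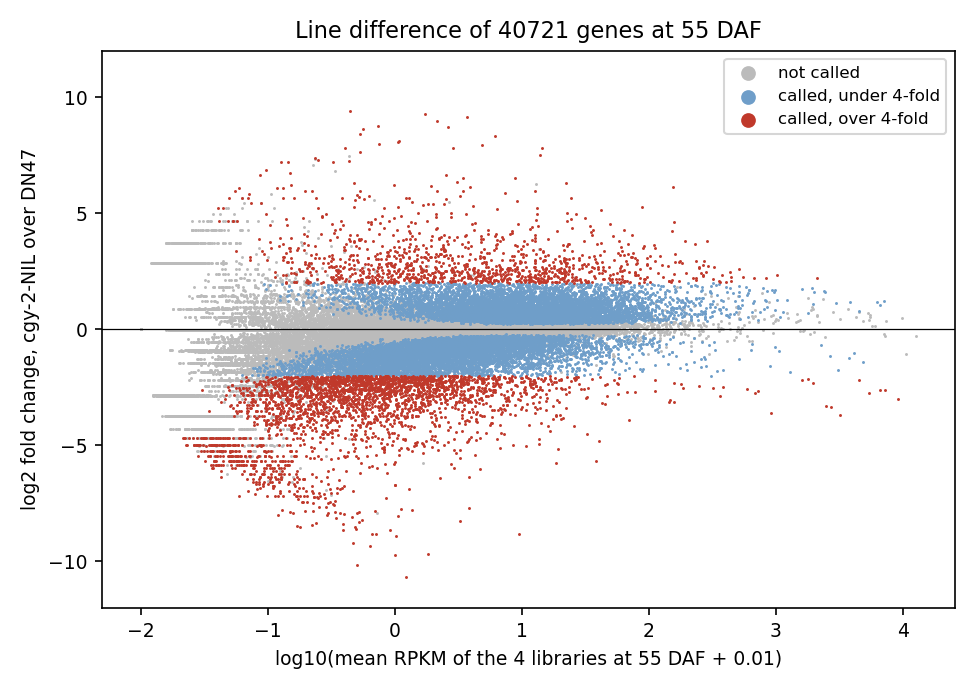
The log2 fold change of cgy-2-NIL over DN47 at 55 DAF (vertical axis) is plotted against the log10 of the mean RPKM of the 4 libraries (horizontal axis), with 1 point for each of the 40721 genes tested. Points past 4-fold are more numerous below 0 (2806 genes) than above 0 (1138 genes), and the rows of points at the left edge are genes with only a few counts.

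At 55 DAF, the seeds of cgy-2-NIL held far fewer transcripts of the major storage globulins than those of DN47. Of the 18 cupin genes, 13 were downregulated (24.4% of all genes tested), none was called upregulated and 5 did not pass the test. Their median log2 fold change was -2.15, against -0.02 over all genes tested. Together the 18 genes took 1.77% and 1.38% of all counts in cgy-2-NIL (95% Wilson intervals 1.76 to 1.77 and 1.38 to 1.39) and 9.0% and 8.04% in DN47 (8.99 to 9.01 and 8.03 to 8.05), intervals that cover counting error only. At 50 DAF they had taken 30.1% and 20.2% in cgy-2-NIL and 29.8% and 24.6% in DN47. The share was thus lower at 55 than at 50 DAF in both lines, and the lines overlapped at 50 DAF but not at 55 DAF. The list was assembled by the study from these samples and is not independent evidence of its direction.

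Both genes of the α-subunit, which the introgressed allele concerns, were close to absent in cgy-2-NIL at this stage. GLYMA20G28660 had 0 and 0 counts in cgy-2-NIL and 65 and 39 counts in DN47, a level at least 17.7-fold lower when a floor of 3 counts per library is set. GLYMA20G28650 had 15 and 1 counts in cgy-2-NIL and 560 and 459 in DN47, with a log2 fold change of -6.0 ± 0.60 (SE; edgeR quasi-likelihood test, adjusted p = 7.8e-06). The lines did not overlap in either gene, which holds for 68% of all genes tested. In DN47 itself both were low at this stage, at 0.892 to 10.6 RPKM. Their identifiers are neighbours, and genes of 1 subunit may share reads that the counting could have divided between them, which was not tested because no sequence was compared. Without replicate 1 or replicate 2 of cgy-2-NIL, the log2 fold change of GLYMA20G28650 was -8.91 or -5.10 (edgeR fit), with the call kept.

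The remaining β-conglycinin genes were also downregulated. The α′-subunit gene GLYMA10G39150 measured 1592 and 974 RPKM in cgy-2-NIL and 5099 and 4671 RPKM in DN47, with a log2 fold change of -1.76 ± 0.45 (edgeR test, adjusted p = 0.0042). The β-subunit gene GLYMA20G28460 measured 113 and 113 RPKM in cgy-2-NIL and 554 and 463 RPKM in DN47. Its log2 fold change was -2.0 ± 0.32, and that of the other β-subunit gene, GLYMA20G28640, was -1.77 ± 0.27. Neither line overlapped the other in these genes, which holds for 68% of all genes tested. Each cgy-2-NIL value was under the lowest DN47 value by more than the gap between replicates. Without replicate 2 of cgy-2-NIL, the α′ gene no longer passed the test (edgeR, log2 fold change -1.48, adjusted p = 0.051).

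Among the glycinin genes, 5 of 6 were downregulated (24.4% of all genes tested), with log2 fold changes of -2.63 to -3.37. Gy1 (GLYMA03G32030) measured 1826 and 1791 RPKM in cgy-2-NIL and 17716 and 15281 RPKM in DN47, a level 8.10-fold lower (log2 fold change -3.02 ± 0.60, edgeR test, adjusted p = 5.3e-04). It was the gene with the largest loss of RPKM among all genes that met the rule for named genes. Gy2 (GLYMA03G32020), Gy4 (GLYMA10G04280) and Gy5 (GLYMA13G18450) had log2 fold changes of -2.63, -3.37 and -3.30. Gy3 (GLYMA19G34780), with 30.5 and 22.7 RPKM in cgy-2-NIL and 264 and 256 RPKM in DN47, had a log2 fold change of -3.12 ± 0.81 and lost its call without replicate 2 of cgy-2-NIL (edgeR test, adjusted p = 0.063). In contrast, Gy7 (GLYMA19G34770) measured 21.3 and 20.4 RPKM in cgy-2-NIL and 16.4 and 19.0 RPKM in DN47 and did not pass the test (log2 fold change 0.40 ± 0.18, edgeR test, adjusted p = 0.086). Under 5 other settings, among them the size factors of DESeq2, Gy7 was called upregulated.

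The globulin genes with no subunit name were not uniform. The 7S gene GLYMA10G03390 measured 710 and 494 RPKM in cgy-2-NIL and 3338 and 3298 RPKM in DN47, with a log2 fold change of -2.30 ± 0.35 (edgeR test, adjusted p = 4.5e-05). The 7S genes GLYMA10G39170 and GLYMA02G16440, at 1310.1 to 1827 and 556 to 736 RPKM in the 4 libraries, had log2 fold changes of -0.02 ± 0.44 and 0.31 ± 0.43 and did not pass the test. Both 11S genes of this kind were downregulated, GLYMA15G04710 by 0.81 on the log2 scale and GLYMA08G13440 by 1.87, the call of the latter being lost without any 1 of the 4 libraries (edgeR test, adjusted p from 0.088 to 0.19). The 2 cupin genes without a class were at 0 to 0.17 RPKM and did not pass the test. In RPKM the libraries of both lines overlapped in GLYMA10G39170 and GLYMA02G16440.

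**Figure D2:**
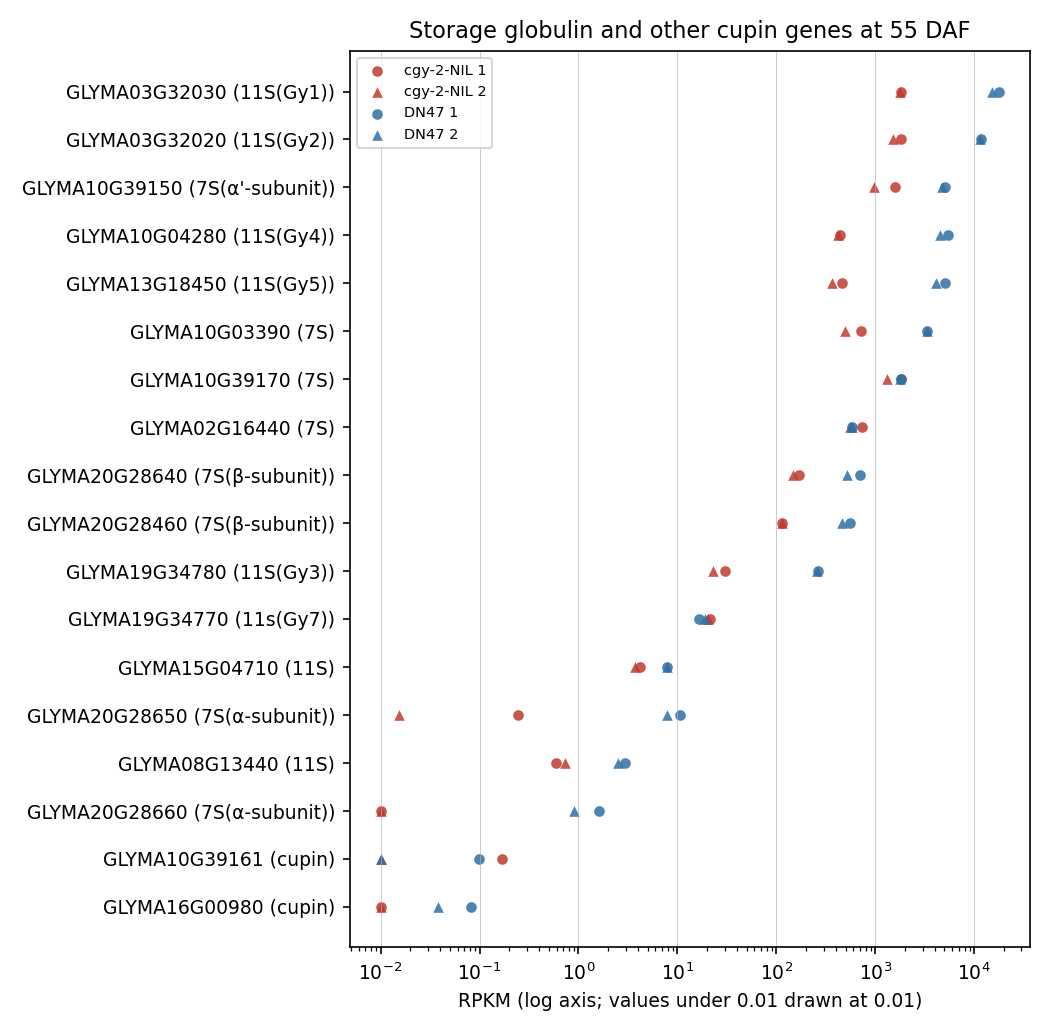
RPKM at 55 DAF (horizontal log axis) of the 18 cupin genes, 1 row each, ordered by mean level, with circles for replicate 1 and triangles for replicate 2 of cgy-2-NIL (red) and DN47 (blue). Red lies left of blue in the rows of Gy1 to Gy5 and of the α′ and β genes (log2 fold changes of -1.76 to -3.37), and the colours lie close together in GLYMA10G39170, GLYMA02G16440 and Gy7.

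The line difference of 9 of the 18 cupin genes changed between 50 and 55 DAF. The change of the line difference from 50 to 55 DAF passed the test in 25.6% of all genes, and in 9 of the 18 cupin genes, each toward lower expression in cgy-2-NIL. For Gy1, the line difference was -0.23 on the log2 scale at 50 DAF and changed by -2.78 ± 0.80 (SE; edgeR test, adjusted p = 0.0165). The β-subunit gene GLYMA20G28460 was at 1031 and 1133 RPKM in cgy-2-NIL and 655 and 782 RPKM in DN47 at 50 DAF, with no call, so that the order of the lines was the opposite of that at 55 DAF (change -2.52, edgeR test, adjusted p = 0.0013). For GLYMA20G28660 the change did not pass the test (edgeR test, adjusted p = 0.73), and its line difference was called at both stages. The test of 55 DAF against the mean of the other 4 stages called 2 of the 18 cupin genes (38.2% of all genes). The SE of that contrast was 1.55 in Gy1, 39.4 in Gy4 and 66.0 in Gy5 on the log2 scale. The count of 2 therefore cannot tell how many of these genes differed from the other stages. At 25 DAF, log2 line differences of -2.23 in Gy1, -2.32 in Gy2, -2.61 in Gy4, -2.60 in Gy5 and -3.98 in the β-subunit gene GLYMA20G28640 had also been called (edgeR test, adjusted p = 0.026, 0.014, 0.030, 0.021 and 3.9e-04), so lower glycinin transcripts in cgy-2-NIL were not seen at 55 DAF alone. Separately, 7 of the 18 had no count in any library of some group, where the contrast with the mean of the other stages is not well determined.

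Several genes were detected at 55 DAF in 1 line only, here at most 3 counts in both libraries of 1 line and at least 20 in both of the other. There were 144 such genes with counts in DN47 and 46 with counts in cgy-2-NIL. Of the 144, 101 had at least 20 counts in both cgy-2-NIL libraries at 50 DAF, whereas 1 of the 46 had them in both DN47 libraries at 50 DAF. The DN47 set held 4 gene models without a GLYMA identifier and the cgy-2-NIL set 19. With a floor of 0 counts the sets held 22 and 7 genes, and with at least 50 counts in the other line 31 and 10.

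Genes for gibberellin-regulated and wall-related proteins were among those read in DN47 alone. GLYMA06G02690, annotated as a gibberellin-regulated protein (small secreted cysteine-rich peptides), had 1 and 0 counts in cgy-2-NIL and 243 and 281 counts in DN47, at least 88.4-fold lower against a floor of 3 counts per library. The other gene of that annotation, GLYMA04G02660, had 0 and 1 counts in cgy-2-NIL and 126 and 115 in DN47, at least 40.8-fold lower. Both were well detected in the parent line and at the floor in both libraries of cgy-2-NIL. GLYMA10G39760, a family 16 glycoside hydrolase of the xyloglucan-modifying kind that remodels cell walls, had 1 and 0 counts in cgy-2-NIL and 167 and 189 in DN47, at least 60.1-fold lower. GLYMA07G40110, which joins a lectin or glucanase domain to a protein kinase, and GLYMA07G39220, annotated as expressed in petal formation, were at least 20.7-fold and 22.6-fold lower. In all of these the line difference also changed from 50 to 55 DAF, by -5.27 to -7.73 on the fitted log2 scale, which depends on the prior count for genes at the floor.

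In the other direction, a methyltransferase and an aminotransferase were read almost only in cgy-2-NIL. GLYMA15G10450, annotated as a protein arginine N-methyltransferase, had 379 and 151 counts in cgy-2-NIL and 1 and 1 in DN47, at least 87.3-fold higher against the floor of 3 counts. GLYMA16G03600, a pyridoxal phosphate-dependent aminotransferase of class I and II, had 1146 and 1424 counts in cgy-2-NIL and 2 and 12 in DN47, with a log2 fold change of 7.49 ± 0.78 (edgeR test, adjusted p = 1.6e-04), or 6.76 and 9.20 without replicate 1 or replicate 2 of DN47. The lines were far apart in both genes, but the replicates of cgy-2-NIL differed by more than 2-fold in the methyltransferase gene. With the Wald test of DESeq2 the aminotransferase gene was not called (adjusted p = 0.33). All 7 of these annotated genes come from a list made on these samples for its large folds, so their direction describes how they were chosen.

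**Figure D3:**
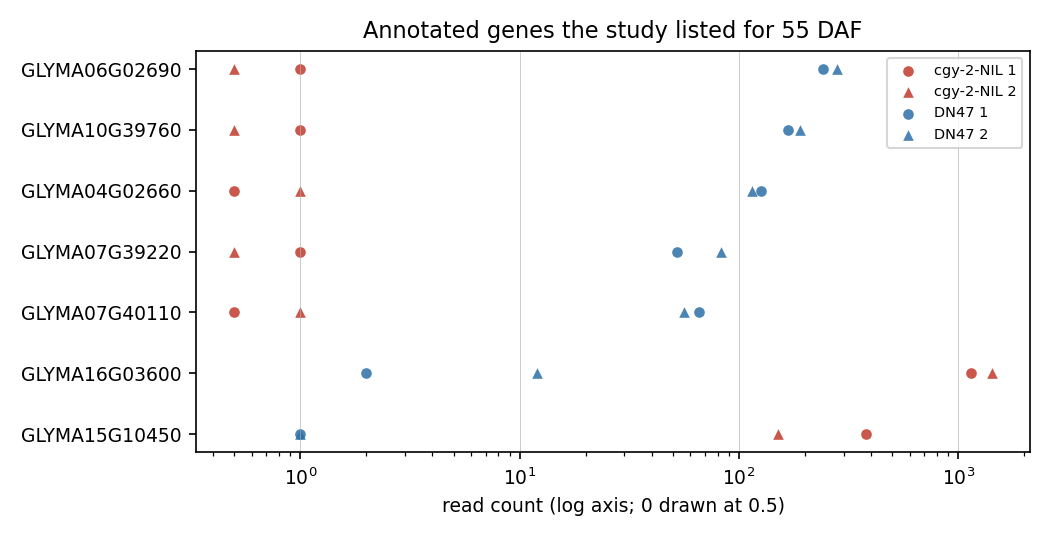
Read counts at 55 DAF (horizontal log axis, 0 drawn at 0.5) of the 7 annotated genes on the list of large folds for this stage, 1 row each, with circles for replicate 1 and triangles for replicate 2 of cgy-2-NIL (red) and DN47 (blue). The 5 genes lower in cgy-2-NIL have 0 or 1 counts there, and the 2 genes higher in cgy-2-NIL have 1 to 12 counts in DN47.

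Regulatory genes were called in both directions. A list of 59 transcription factor genes for this stage was taken from the publication. All 59 passed the test, 21 upregulated and 38 downregulated. The paper lists GLYMA03G02090 and GLYMA03G27195 as lower in cgy-2-NIL at 55 DAF, and GLYMA01G43620 as higher. The deposited values used here run the other way, with log2 fold changes of 3.08, 3.09 and -1.47. All 59 genes were picked as changed on these very samples, so the counts are not independent evidence. The line difference changed from 50 to 55 DAF in 39 of the 59 genes (25.6% of all genes), and 53 of the 59 passed the test against the mean of the other 4 stages (38.2% of all genes). Both contrasts reuse the 55 DAF values on which the genes were picked, so nothing is read from these counts. Among 15 further regulators on the list without a value at 55 DAF, 2 were upregulated and 1 was downregulated at 55 DAF. Over all genes tested, 46.1% were called. The downregulated gene, GLYMA04G01090 of the GATA family, had a log2 fold change of -0.86 ± 0.32 and lost its call without any of 3 libraries, both of DN47 and replicate 1 of cgy-2-NIL (edgeR test, adjusted p from 0.082 to 0.27). The call was also lost with the size factors of DESeq2 (-0.78, edgeR test, adjusted p = 0.063) and with limma-voom (-0.88, adjusted p = 0.067).

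Both DELLA genes on the list, whose products repress gibberellin responses, were downregulated (24.4% of all genes tested), again among genes picked as changed. GLYMA11G33720 measured 5.04 and 3.64 RPKM in cgy-2-NIL and 17.9 and 16.7 RPKM in DN47, 3.55-fold lower (log2 fold change -1.83 ± 0.17, edgeR test, adjusted p = 2.9e-07). GLYMA18G04500 measured 5.40 and 3.49 RPKM in cgy-2-NIL and 15.2 and 13.0 RPKM in DN47, with a log2 fold change of -1.50 ± 0.17. Neither line overlapped the other (68% of all genes tested). In both genes the difference was smaller at 50 DAF, at -0.42 and -0.11, and its change to 55 DAF passed the test (edgeR test, adjusted p = 3.3e-04 and 4.6e-04).

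The other GRAS genes, plant-specific regulators with roles from root patterning to stress responses, were divided. Of the 18 listed for 55 DAF, 6 were upregulated and 12 downregulated (21.8% and 24.4% of all genes tested). These 18 were picked as changed on these samples, so nothing is read from these counts. GLYMA12G34420 measured 107 and 88.4 RPKM in cgy-2-NIL and 23 and 26.1 RPKM in DN47, 4.47-fold higher (log2 fold change 2.16 ± 0.27, edgeR test, adjusted p = 1.5e-05). At 50 DAF it had been at 10.4 and 20.7 RPKM in cgy-2-NIL and 10.3 and 13.1 RPKM in DN47. It was thus higher at 55 than at 50 DAF in both lines, and by more in cgy-2-NIL. Its line difference was also called at 35 DAF (1.67), at 25 DAF (0.94) and, in the other direction, at 18 DAF (-1.62). The adjusted p of these differences was 0.0019, 0.044 and 0.01 (edgeR test). GLYMA20G30150, at 18.7 and 24.5 RPKM against 7.75 and 7.68 RPKM, was upregulated by 1.66 on the log2 scale, with a difference that was already called at 50 DAF. The largest decreases were in GLYMA09G04110 (log2 fold change -3.36 ± 0.48, or -4.93 and -2.63 without replicate 1 or replicate 2 of cgy-2-NIL), at 0.206 and 0.0394 RPKM in cgy-2-NIL against 1.44 and 1.38 RPKM in DN47, and in GLYMA08G43780 (-2.50 ± 0.16), at 0.745 and 0.764 RPKM against 5.09 and 4.55 RPKM.

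Most GRAS genes on the list without a value at 55 DAF did not pass the test. Of 10, 2 were upregulated at 55 DAF and 8 did not pass the test, while 21.8% of all genes tested were upregulated. These 10 were set apart by having no listed value at 55 DAF, so the counts say nothing about the family. GLYMA13G36120 measured 34.8 and 16.9 RPKM in cgy-2-NIL and 10.2 and 8.36 RPKM in DN47, with a log2 fold change of 1.64 ± 0.31 (edgeR test, adjusted p = 7.0e-04). All its cgy-2-NIL values were above those of DN47, although the replicates of cgy-2-NIL differed by more than 2-fold.

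All 14 MADS-box genes on the list were downregulated (24.4% of all genes tested). Genes of this family specify floral organs, ovules and the seed coat in Arabidopsis; the roles of the soybean copies named here are not given in the sources used. The most abundant, GLYMA19G04320, measured 13.5 and 19.9 RPKM in cgy-2-NIL and 54.8 and 53.0 RPKM in DN47, 2.85-fold lower (log2 fold change -1.51 ± 0.15, edgeR test, adjusted p = 5.1e-07). GLYMA08G42300 measured 10.4 and 20.01 RPKM in cgy-2-NIL and 35.9 and 42.6 RPKM in DN47, with a log2 fold change of -1.19 ± 0.23, or -0.78 and -1.78 without replicate 1 or replicate 2 of cgy-2-NIL. The largest folds were in 2 genes of low level. GLYMA05G07286 had 0.0940 and 0.150 RPKM in cgy-2-NIL and 1.72 and 2.24 RPKM in DN47 (-3.82 ± 0.37), and GLYMA11G16105 had 0.199 and 0.127 RPKM against 2.24 and 2.80 RPKM (-3.77 ± 0.36). The lines did not overlap in any of the 14 genes, which holds for 68% of all genes tested. In 12 of the 14, replicate 1 of cgy-2-NIL was below replicate 2, and the part of this gap in the result was not tested. The change of the line difference from 50 to 55 DAF passed the test in 12 of the 14 (25.6% of all genes). The 14 genes were picked as changed on these samples, so nothing is read from these counts.

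General transcription factors assemble RNA polymerases at promoters or aid elongation. All 6 of their genes on the list were upregulated, against 21.8% of all genes tested. The list holds only genes picked as changed on these samples, so this says nothing about the class as a whole. The gene for the α/β subunit of TFIIA, GLYMA11G14450, measured 44.8 and 48.0 RPKM in cgy-2-NIL and 22.4 and 24.9 RPKM in DN47, with a log2 fold change of 1.14 ± 0.16 (edgeR test, adjusted p = 2.3e-05). The TFIIE gene GLYMA05G38060 measured 22.2 and 23.1 RPKM against 11.96 and 11.5 RPKM (1.12 ± 0.13). The replicates of each line lay close together and the lines stood clearly apart. The other TFIIE gene, GLYMA05G07910, and the genes of TFIIS (GLYMA03G28000), TFIIIC (GLYMA14G24776) and TFIIB (GLYMA19G31830) had log2 fold changes of 1.25, 1.4, 1.48 and 1.99. The change from 50 to 55 DAF passed the test in 2 of the 6, GLYMA05G38060 and GLYMA03G28000 (25.6% of all genes).

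The TCP genes on the list, regulators of cell proliferation and growth, included 4 upregulated and 3 downregulated members (21.8% and 24.4% of all genes tested). They too were picked as changed on these samples. GLYMA03G02090 measured 5.17 and 4.05 RPKM in cgy-2-NIL and 0.667 and 0.555 RPKM in DN47, with a log2 fold change of 3.08 ± 0.34 (edgeR test, adjusted p = 1.9e-06). Its difference at 50 DAF, 2.27, was also called, and its change to 55 DAF did not pass the test. The paper lists GLYMA03G02090 as lower in cgy-2-NIL at 55 DAF, opposite to these values. GLYMA05G01131, at 2.79 and 2.83 RPKM against 0.712 and 0.877 RPKM, was upregulated by 1.99 on the log2 scale with a line difference of -0.28 at 50 DAF. GLYMA12G28970, at 0.549 and 0.375 RPKM against 2.89 and 2.41 RPKM, had a log2 fold change of -2.35 ± 0.27.

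Smaller families on the list were split as well. Among the 3 NF-YB genes, which encode a subunit of the CCAAT-binding complex, GLYMA17G00950 and GLYMA09G01650 had log2 fold changes of -2.65 ± 0.33 and -2.10 ± 0.36, the former being -3.43 and -2.14 without replicate 1 or replicate 2 of cgy-2-NIL. The third gene, GLYMA10G05606, was the most abundant, at 17.9 and 23.5 RPKM in cgy-2-NIL and 9.77 and 8.85 RPKM in DN47, and was upregulated by 1.33 ± 0.18. Of the SBP-box genes, 1 was upregulated and 1 downregulated. The former, GLYMA03G27195, measured 1.18 and 2.37 RPKM in cgy-2-NIL and 0.178 and 0.285 RPKM in DN47. Its log2 fold change was 3.09, or 2.46 without replicate 2 of cgy-2-NIL. The paper lists it as lower in cgy-2-NIL, opposite to these values. The GATA gene GLYMA16G27171 measured 0.672 and 0.814 RPKM in cgy-2-NIL and 6.16 and 5.43 RPKM in DN47 (log2 fold change -2.78 ± 0.26, edgeR test, adjusted p = 5.5e-07). Of the 2 genes with a MYC/MYB domain, GLYMA06G04550 had a log2 fold change of -3.23 ± 0.56, which was -5.01 and -2.46 without replicate 1 or replicate 2 of cgy-2-NIL. GLYMA17G31537 had one of 1.27 ± 0.32, losing its call without replicate 2 of cgy-2-NIL or without replicate 1 of DN47 (edgeR test, adjusted p = 0.054 and 0.053).

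**Figure D4:**
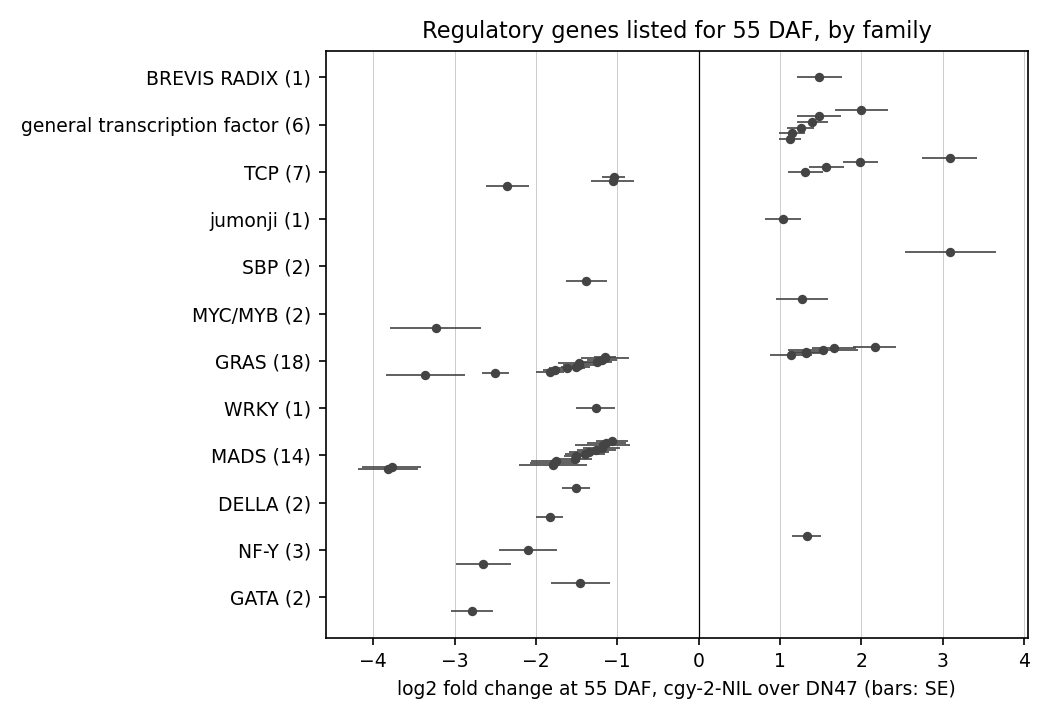
Fitted log2 fold change at 55 DAF of cgy-2-NIL over DN47 (horizontal axis, bars are SE) for the 59 regulatory genes listed for this stage, grouped by family with the number of genes in brackets. The 14 MADS and 2 DELLA genes lie left of 0, the 6 general transcription factor genes right of 0, and the GRAS, TCP, NF-Y, SBP and MYC/MYB genes on both sides.

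Of 17 genes that the paper lists as changed at all stages, 16 were downregulated and 1 was upregulated at 55 DAF (24.4% and 21.8% of all genes tested). As the list was picked for change on these samples, the calls are not independent evidence. The direction was not the same at all stages. GLYMA02G04840 and GLYMA11G25660, among others, were called upregulated at 25 and 35 DAF. Nor were all 17 called at every stage here, as for GLYMA04G41540 at 18 DAF (edgeR test, adjusted p = 0.51). The ferritin gene GLYMA01G31300, for an iron storage protein, measured 2.88 and 2.32 RPKM in cgy-2-NIL and 41.1 and 33.8 RPKM in DN47 (log2 fold change -3.68 ± 0.22, edgeR test, adjusted p = 5.8e-09). Its difference was larger at 55 than at 50 DAF, by -2.09. The glutamate synthase gene GLYMA04G41540, for an enzyme of ammonium assimilation, measured 0.773 and 1.18 RPKM against 9.31 and 7.85 RPKM (-2.96 ± 0.20), and its difference also changed from 50 DAF, by -2.13. These were the only 2 of the 17 whose change from 50 to 55 DAF passed the test. A haem peroxidase gene, GLYMA09G02600, had a log2 fold change of -3.14 ± 0.23, against -2.88 at 50 DAF. The single upregulated gene, GLYMA11G15580 with a response regulator receiver domain, measured 11.9 and 9.97 RPKM against 4.41 and 4.02 RPKM (1.55 ± 0.12), against 1.61 at 50 DAF.

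Most genes with the largest gains and losses of RPKM had no name in the sources used, as the files do not pair identifiers with names. Of the 8 genes with the largest gain of mean RPKM, none was annotated, and their gains were 1976 to 4903 RPKM with log2 fold changes of 1.07 to 2.23. The largest gain was in GLYMA16G03470, with 170351 and 177671 counts in cgy-2-NIL and 63593 and 86053 in DN47, and lost its call without replicate 1 of DN47 (edgeR test, log2 fold change 1.04 in place of 1.21, adjusted p = 0.090). Of the 8 genes with the largest loss, 3 were glycinin genes (Gy1, Gy2 and Gy4) and 5 were not annotated. The largest loss among the latter was in GLYMA16G33400, with 29616 and 30286 counts in cgy-2-NIL and 166498 and 197720 counts in DN47, a log2 fold change of -2.62. The 8 lowest log2 fold changes included GLYMA20G28660, GLYMA06G02690 and GLYMA10G39760, and all 8 genes were at the floor in cgy-2-NIL.

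Calls at 55 DAF were set beside those at 50 DAF, where the replicates spread more (common dispersion 0.0424, against 0.0215 at 55 DAF), so a missing call at 50 DAF is not a different value. Of the genes called upregulated at 55 DAF, 1960 were also upregulated at 50 DAF, 6739 had not been called and 168 had been downregulated. Of those called downregulated at 55 DAF, 1997 were also downregulated at 50 DAF, 7622 had not been called and 305 had been upregulated. All of these 168 and 305 genes also passed the test of the change itself. Genes called in opposite directions at these stages are nearly bound to pass it, so this adds no evidence. Between 50 and 55 DAF, the line difference changed toward lower expression in cgy-2-NIL in 15.8% of the genes tested and toward higher expression in 9.81%.

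Genes were also grouped by their course in DN47 before 55 DAF, with no library shared between the grouping and the values. Those that rose by more than 4-fold from 35 to 50 DAF in DN47 had a median log2 line difference at 55 DAF of 0.05 (1315 genes, 27.3% upregulated and 21.8% downregulated). Those that fell had a median of -0.02 (2269 genes, 7.05% upregulated and 9.78% downregulated), and the rest a median of -0.02. Medians were also taken among genes with a mean of at least 20 counts in the libraries of 55 DAF, which thus entered this choice. They were 0.34 for genes that rose (957 genes, 35.4% upregulated and 20.8% downregulated). They were 0.50 for those that fell (267 genes, 42.7% and 21.3%) and 0.04 for the rest (26179 genes, 30.4% and 28.4%). With classes from cgy-2-NIL and the same filter, the medians were 0.60 for genes that rose and -0.38 for genes that fell. The sign for genes that fell thus depended on the line used for the classes. Genes whose highest level in DN47, among the earlier stages, was at 50 DAF had a median of 0.06 and those that peaked at 18, 25 or 35 DAF had medians of -0.11, -0.21 and -0.14. The quartiles of each group were wider than these differences, and the median of the genes that rose became -0.08 without replicate 2 of cgy-2-NIL.

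Called genes were spread over all chromosomes. The share downregulated ran from 23.6% on chromosome 15 to 27.2% on chromosome 18, and the share upregulated from 19.8% on chromosome 18 to 25.6% on chromosome 4. On chromosome 20, which carries the introgressed segment, 24.5% were upregulated and 24.2% downregulated. Among the 50 genes nearest to GLYMA20G28660 in the order of identifiers, 12 were upregulated and 10 downregulated. Together 44% of these 50 were called, against 46.1% of all genes tested. Chromosomes and order were read from the identifiers, as no genome of this build was used here.

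The line difference moved with gene length. Among genes with a mean of at least 20 counts, the median log2 fold change was 0.42 for genes under 500 bases (515 genes), 0.31 at 500 to 1000, 0.10 at 1000 to 2000, -0.08 at 2000 to 4000 and -0.10 above 4000 bases (1412 genes). The replicates of cgy-2-NIL differed along length in the same size range, with a median of -0.15 for replicate 1 over replicate 2 under 500 bases and 0.16 above 4000 bases, while in DN47 these medians were -0.0016 and 0.06. At 35 DAF the line difference ran from 0.10 to -0.38 over the same classes. The cupin genes had lengths of 1014 to 2661 bases and the MADS-box genes of 1090 to 1768 bases, classes with medians between 0.10 and -0.08. With library offsets that follow gene length, chosen after this relation was seen, 13 cupin genes and all 14 MADS-box genes were again downregulated, with medians of -2.16 and -1.57, and 18844 genes were called in all.

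**Figure D5:**
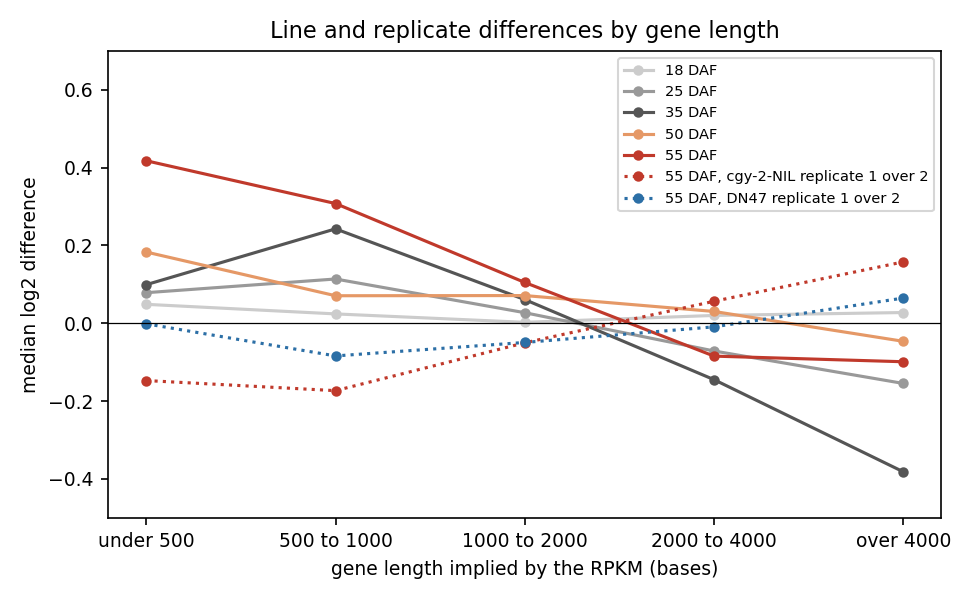
Median log2 difference (vertical axis) in 5 classes of gene length (horizontal axis) for cgy-2-NIL over DN47 at each stage (solid lines) and for replicate 1 over replicate 2 of each line at 55 DAF (dotted lines). The 55 DAF line falls from 0.42 in the shortest to -0.10 in the longest genes, and the replicates of cgy-2-NIL rise from -0.15 to 0.16.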

How the data were processed

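The authors cleaned the reads, mapped them to the soybean genome and genes of Ensembl Plants release 23 and counted them per gene with HTSeq 0.6.1; the deposited counts are whole numbers without normalization. The aligner and strand setting are not given in the sources used here. The deposited RPKM values were made by the authors from the count, 1 length per gene and the library total, with no scaling between libraries. The 55 DAF libraries held 19925743 to 24278577 counts.

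After filterByExpr and TMM scaling, the robust quasi-likelihood F test of edgeR 4.0.16 under R 4.3.3 was run on all 20 libraries, fitting 1 mean per group (10 groups, 10 residual degrees of freedom). The contrasts were cgy-2-NIL minus DN47 at 55 DAF, and that difference minus the one at 50 DAF or minus the mean of the other 4 stages. P-values were adjusted by Benjamini-Hochberg over the 40721 genes tested, at a threshold of 0.05. Fold bounds used 3 counts per library. Each SE was found as the absolute log2 fold change divided by the square root of the F statistic. It therefore becomes very large where F is close to 0.

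Members and lists were chosen with earlier results of these data known. Genes were named by fixed rules: the 8 highest and lowest log2 fold changes, and the 8 largest RPKM gains and losses, among called genes that averaged 20 counts or more and whose lines did not overlap, the annotated genes likewise, and members of the study's lists. The text gives examples of these. Roles come from the annotation of 119 genes in the paper, as 0 of the 59048 RefSeq genes matched an identifier. For that reason lists by gene name (LEA proteins, oil bodies, heat shock, ribosomes, photosynthesis and others) were not applied, and no sequences are shown. Alternatives were the size factors and Wald test of DESeq2 1.42.0, upper-quartile factors, total counts, TMM without cupin genes, limma-voom (limma 3.58.1), other filters and thresholds, a replicate block, fits to fewer libraries, and, added after the data were seen, offsets that follow gene length. The fit was tested on simulated data. Tables and figures used Python 3.11.15, pandas 2.3.3 and matplotlib 3.10.9.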

Additional observations from a re-analysis of the deposited data

Results flagged for a closer look

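The line difference of 10412 genes changed between 50 and 55 DAF, and that of 15563 genes at 55 DAF differed from the mean of the other 4 stages (edgeR quasi-likelihood test, adjusted p under 0.05). Both are differences between stages tested as such in 1 fit. Of the 57 genes named, 37 showed a tested change from 50 to 55 DAF, 30 toward lower and 7 toward higher expression in cgy-2-NIL. Over all genes tested, 25.6% changed, 15.8% toward lower and 9.81% toward higher expression. Most named genes were chosen by their values at 55 DAF, which this contrast reuses, so nothing is read from these counts. Values are changes of the log2 line difference from 50 to 55 DAF.

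For the storage globulins the change was -2.78 in GLYMA03G32030, -2.46 in GLYMA03G32020, -3.06 in GLYMA10G04280, -3.11 in GLYMA13G18450, -2.03 in GLYMA10G03390 and -0.86 in GLYMA15G04710. It was -2.52 in GLYMA20G28460, -1.90 in GLYMA20G28640 and -2.88 in the α-subunit gene GLYMA20G28650. Among the genes listed for their change at 55 DAF it was -7.60 in GLYMA06G02690, -6.58 in GLYMA04G02660, -7.73 in GLYMA10G39760, -5.27 in GLYMA07G40110, -5.40 in GLYMA07G39220 and 7.75 in GLYMA15G10450.

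Among the regulators it was -1.40 and -1.39 in the DELLA genes GLYMA11G33720 and GLYMA18G04500. In the GRAS genes it was 1.81 in GLYMA12G34420, 2.15 in GLYMA13G36120, -2.21 in GLYMA08G43780 and -3.58 in GLYMA09G04110. In the MADS-box genes it was -3.90 in GLYMA05G07286, -3.49 in GLYMA11G16105, -1.38 in GLYMA19G04320 and -1.17 in GLYMA08G42300. The change was 1.02 in GLYMA05G38060 (TFIIE), 1.60 in GLYMA03G28000 (TFIIS), 2.26 in GLYMA05G01131 and -1.78 in GLYMA12G28970 (TCP). It was -1.99 in GLYMA17G00950 and -2.50 in GLYMA09G01650 (NF-YB), -2.61 in GLYMA16G27171 and 1.64 in GLYMA04G01090 (GATA), and -3.66 in GLYMA06G04550 (MYC/MYB). The ferritin gene GLYMA01G31300 changed by -2.09, the glutamate synthase gene GLYMA04G41540 by -2.13 and the unannotated GLYMA16G33400 by -2.26.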

How the results depend on the processing

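Leaving out each 55 DAF library in turn gave 14509 to 16534 called genes in place of 18791, 3399 to 3912 past 4-fold in place of 3944, 7605 to 9808 changed from 50 to 55 DAF, and 10 to 12 cupin genes downregulated in place of 13. With 1 library left in an arm, that library is assumed to vary like the other groups. The common dispersion of the fit to all libraries was 0.0162, below the 0.0215 of 55 DAF alone. A fit to only the 4 libraries of 55 DAF tested 31236 genes and called 15745, with 3132 past 4-fold. The counts past 4-fold were 1463 (602 upregulated, 861 downregulated) with at least 10 counts in each library of 55 DAF and 10151 (3838 and 6313) above an absolute log2 fold change of 1. At an adjusted p under 0.01, 6006 genes changed from 50 to 55 DAF. With a floor of 0 counts 22 and 7 genes, and with at least 50 counts 31 and 10 genes, were detected in DN47 only and in cgy-2-NIL only. Of the cupin genes 1, Gy7, was called upregulated with the size factors or the Wald test of DESeq2, with limma-voom, in a fit to the 4 libraries of 55 DAF and in a fit without 50 DAF. For genes that rose or fell from 35 to 50 DAF, the median line difference was 0.39 and -0.20 with classes from cgy-2-NIL, -0.017 and -0.37 with classes past a log2 fold change of 1, and 0.14 and 0.00 with the size factors of DESeq2. It was -0.17 for genes that fell with total counts only, and leaving out a library gave -0.077 to 0.092 and -0.025 to 0.00. The cause of these shifts was not tested. Of the 54 named genes called, 7 lost their call under some alternative and none reversed.

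The replicate numbers do not pair the samples (correlation of the deviations of same-numbered libraries at 55 DAF 0.03), and a replicate block gave 18715 called genes and changed no call of a named gene. With 2 libraries a line, genes under a few counts could not be compared, and 13.97% of the genes tested had no count in some group.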
